A study of Capra hircus with 6 samples.

Results

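The Kruppel-like factors (KLF) are transcription factors that bind GC-rich and CACCC elements through zinc fingers at their C-terminal end. Their N-terminal parts differ and recruit coactivators, or corepressors such as CtBP and Sin3. Several of them act in a relay during adipogenesis, the formation of fat cells: KLF4, KLF5, KLF6 and KLF9 are known to promote it, and KLF2, KLF3 and KLF7 to hold it back. Described here are 10 members named by gene symbol (KLF2, KLF3, KLF4, KLF5, KLF6, KLF7, KLF9, KLF10, KLF11 and KLF13), taken from 16285 genes in the deposited tables. All 10 had a row and all 10 passed the filter on low values.

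The study sequenced 6 RNA libraries of cultured goat (Capra hircus) adipose mesenchymal stem cells. The 3 control libraries carried the genotype label WT and the 3 others were labelled as overexpressing YAP, a coactivator restrained by the Hippo kinases. Treatment for adipogenic differentiation was recorded for both groups, while the promoter, the vector, the day of differentiation and the number of animals or clones were not stated in any source used here. The design text of the series names TAZ (gene WWTR1) as the overexpressed gene, whereas the sample labels name YAP. Columns named for TAZ were also deposited, but they match no sample label and were not used. The controls and the libraries labelled YAP stood in separate tables of the same genes. The second of these also held 3 columns named pcDNA, the name of a family of expression vectors; they match no sample label and were not used, and the labels do not say whether the controls carried an empty vector.

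Levels are FPKM, which scales a gene's fragments to the length of its model and to the total of the library, so that levels can be compared between genes. The library totals implied by the FPKM values were 32593380 to 37131015 fragments. YAP1 itself stood at 27.2 ± 1.54 FPKM (SD, n = 3) in controls and 27.4 ± 1.57 in the other group (limma adjusted p = 0.95), and WWTR1 fell from 32.0 ± 3.38 to 21.4 ± 1.98 (log2 change -0.56, limma adjusted p = 0.0013). Neither gene was thus higher in the second group, as counted on the deposited gene models. With the vector not stated, it is unknown whether these counts include reads of a construct. The second group is called the libraries labelled YAP, and each direction below is that of the label. Of 7 stromal markers, all had reads in every library, with a summed level of 7066 to 7526 FPKM in controls, against 10267 to 10879 in the libraries labelled YAP. Most of this sum was COL1A1 (3674 ± 73.9 against 5890 ± 166) and COL1A2. Of the 7 markers, 4 rose and 2 fell at limma adjusted p under 0.05, where 12.9% of all tested genes rose and 23.0% fell. The falls were ENG, from 150 ± 14.8 to 80.8 ± 4.98 FPKM, and NT5E, from 170.3 ± 10.9 to 127 ± 6.38. The 4 leukocyte markers had at most 3 reads in any library, and 5 mature adipocyte markers summed to at most 0.51 FPKM. No label ties the replicates to separate cultures or animals, and the p-values therefore measure no more than the spread among these samples, and that spread may be technical. In bulk RNA, fewer cells with a transcript and less transcript per cell cannot be told apart.

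The comparison asked how the KLF genes differed between the libraries labelled YAP and the controls. KLF9 and KLF4 rose, and KLF2, KLF10, KLF6, KLF11, KLF3, KLF7 and KLF5 fell. KLF13 did not pass the test. Thus 2 of 10 were higher and 7 of 10 lower at limma adjusted p under 0.05, where 35.9% of all 10761 tested genes passed, 12.9% higher and 23.0% lower. The groups did not overlap for the same 9 genes, against 48.3% of all tested genes (16.7% higher and 31.6% lower). The median log2 change of the 10 was -0.32, and that of all tested genes was -0.10. Changes were taken as differences of log2(FPKM + 1), a scale on which the change of low genes comes out too small, and p-values were adjusted over all tested genes by the Benjamini-Hochberg method. The 3 smallest falls (KLF3, KLF7 and KLF5) did not survive median-of-ratios scaling or a count-based fit of recovered reads, which each left 2 higher and 4 lower. With median-of-ratios scaling, 15.8% of all tested genes were higher and 14.0% lower. The count of lower members was also 4 when YAP replicate 1 was left out.

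**Figure D1:**
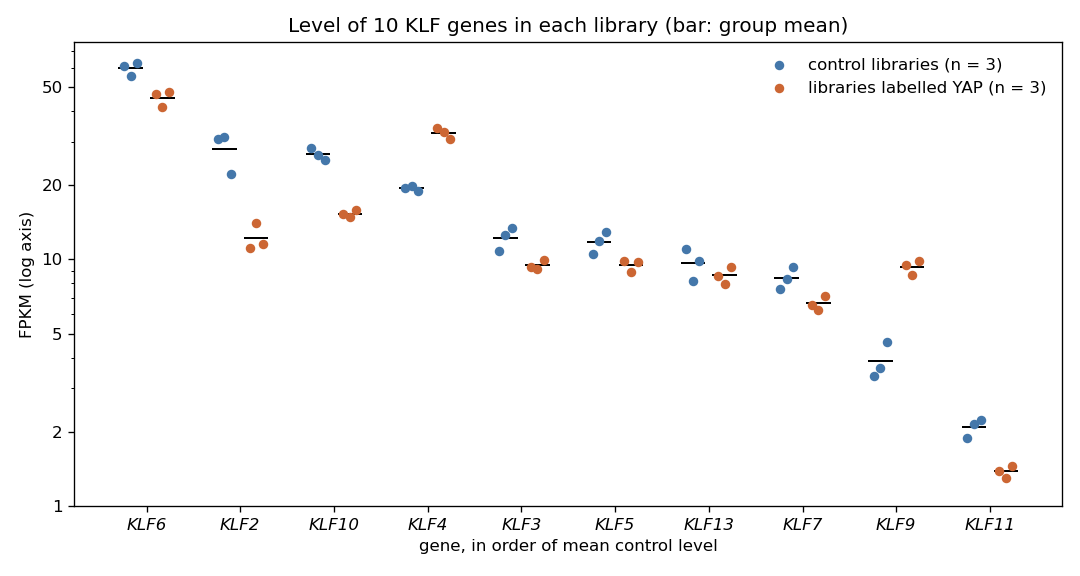
Level of each of the 10 KLF genes in FPKM (log axis) in the 3 control libraries (blue) and the 3 libraries labelled YAP (orange), with a bar at each group mean. The points of KLF9 and KLF4 lie higher in the libraries labelled YAP, those of KLF13 overlap, and those of the other 7 genes lie lower.

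KLF9, which binds Sin3 and is known as a glucocorticoid-induced activator of PPARG in adipogenesis, showed the larger rise. Its level was 3.37, 3.61 and 4.64 FPKM in the 3 controls, against 9.46, 8.62 and 9.83 in the 3 libraries labelled YAP, each in the order of the replicate numbers. Every library labelled YAP lay above every control, and control replicate 3 was the highest of the controls. The ratio of means was 2.40 and the log2 change 1.09 (95% confidence interval 0.85 to 1.33, SE 0.11, limma adjusted p = 2.2e-05). Only 2.07% of tested genes had a larger rise on this scale. The values rested on 613 to 1900 reads.

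KLF4, an early factor that is known to induce CEBPB at the start of adipogenesis, stood at 19.4, 19.9 and 18.9 FPKM in controls, against 34.0, 33.0 and 30.9 in the libraries labelled YAP. The controls lay within about 1 FPKM of each other, and all libraries labelled YAP lay above them. The ratio of means was 1.68 (log2 change 0.72, 95% confidence interval 0.55 to 0.89, SE 0.08, limma adjusted p = 3.3e-05). A larger rise was found in 3.99% of tested genes.

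KLF2, which is known to repress the PPARG promoter in preadipocytes and is best known from endothelial cells, had the largest fall of the 10. It stood at 30.7, 31.4 and 22.1 FPKM in controls, against 11.2, 14.0 and 11.5 in the libraries labelled YAP. Control replicate 3 was the low control, yet it lay above all libraries labelled YAP. Mean KLF2 was 2.30-fold lower (log2 change -1.13, 95% confidence interval -1.41 to -0.84, SE 0.13, limma adjusted p = 7.2e-05), and 0.54% of tested genes fell further. Among 6 endothelial markers, CDH5 and KDR had at most 1 read in any library and ERG fell from 10.1 ± 0.52 to 6.80 ± 0.39 FPKM. Below the filter, PECAM1 was lower, at 0.37 ± 0.08 and 0.04 ± 0.04 FPKM, VWF was higher without overlap, at 0.03 ± 0.01 and 0.10 ± 0.01, and TEK stood at 0.06 ± 0.03 and 0.09 ± 0.0035 with overlap. The summed level of the 6 was 10.1 to 11.2 FPKM in controls, against 6.57 to 7.30 in the libraries labelled YAP, nearly all of it ERG, and their part in the KLF2 difference was not tested.

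Among the other members of the activator branch, KLF6 was the most abundant KLF gene in every library. KLF6, which is known to repress the preadipocyte gene DLK1, stood at 61.0, 55.6 and 62.5 FPKM in controls, against 46.8, 41.5 and 47.6 in the libraries labelled YAP (log2 change -0.39 ± 0.08 SE, limma adjusted p = 0.0040). Its lowest control lay above its highest value in the other group. KLF7, a factor that holds back adipocyte formation, had 7.60, 8.35 and 9.32 FPKM in controls, against 6.54, 6.26 and 7.13 in the libraries labelled YAP (log2 change -0.30 ± 0.10 SE, limma adjusted p = 0.031). KLF5, which is known to act downstream of CEBPB and CEBPD on PPARG, had 10.6, 11.8 and 12.9 FPKM in controls, against 9.82, 8.92 and 9.77 in the libraries labelled YAP (log2 change -0.28 ± 0.09 SE, limma adjusted p = 0.037). Both were close to the threshold: after median-of-ratios scaling the limma adjusted p was 0.097 for KLF7 and 0.13 for KLF5. The KLF7 call was lost without control replicate 2 or 3 or YAP replicate 1 or 2 (limma adjusted p 0.060 to 0.11), and the KLF5 call without any of these or YAP replicate 3 (0.065 to 0.11). The 4 epithelial markers, listed because KLF5 is abundant in epithelium, summed to 0.55 to 0.74 FPKM in controls, against 0.088 to 0.16 in the libraries labelled YAP, and their part in the KLF5 difference was not tested.

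KLF3 was the only one of the 10 in the branch that binds CtBP, and it is known to repress CEBPA. It stood at 10.9, 12.5 and 13.4 FPKM in controls, against 9.31, 9.13 and 9.97 in the libraries labelled YAP (log2 change -0.34 ± 0.09 SE, limma adjusted p = 0.017). After median-of-ratios scaling its log2 change was -0.26 with limma adjusted p = 0.057, and without YAP replicate 1 it was -0.33 with limma adjusted p = 0.074.

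In the branch that binds Sin3, KLF10 and KLF11 moved opposite to KLF9. KLF10, a gene induced by TGF-beta, stood at 28.3, 26.6 and 25.4 FPKM in controls, against 15.3, 14.9 and 15.9 in the libraries labelled YAP. Its 3 libraries labelled YAP lay within about 1 FPKM of each other. The mean was 1.74-fold lower (log2 change -0.76, 95% confidence interval -0.94 to -0.59, SE 0.08, limma adjusted p = 2.7e-05), and 1.83% of tested genes fell further. KLF11, its closest relative and also induced by TGF-beta, was the least abundant of the 10, with 1.89, 2.15 and 2.24 FPKM in controls, against 1.39, 1.30 and 1.46 in the libraries labelled YAP (log2 change -0.38 ± 0.09 SE, limma adjusted p = 0.0077). KLF13 stood at 11.0, 8.17 and 9.82 FPKM in controls, against 8.54, 7.98 and 9.31 in the libraries labelled YAP. These ranges overlapped, and the change of -0.14 had a 95% confidence interval of -0.38 to 0.10 (limma adjusted p = 0.33).

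**Figure D2:**
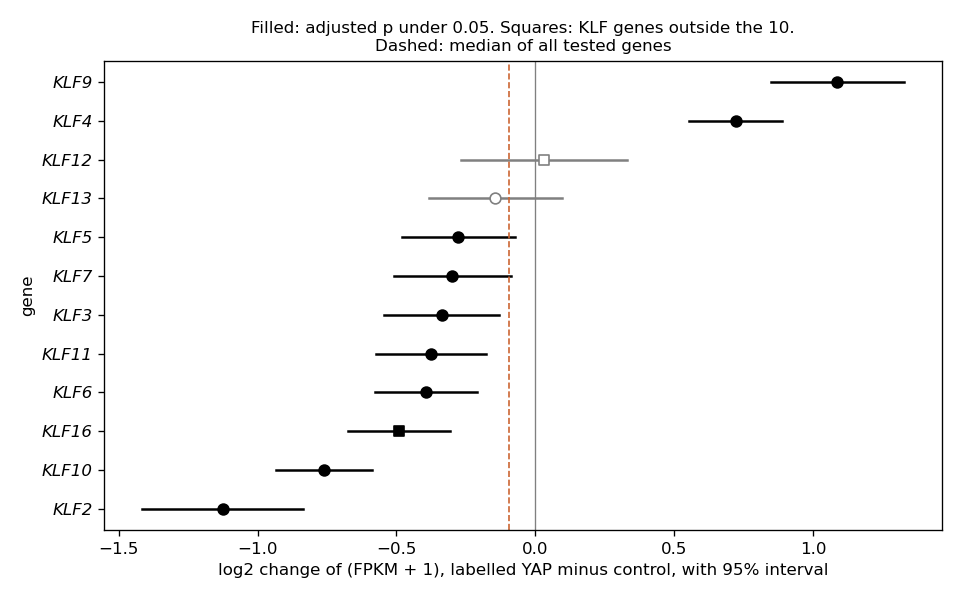
Change of the 10 KLF genes (circles) and of the tested KLF genes KLF12 and KLF16 (squares) on the log2(FPKM + 1) scale, libraries labelled YAP minus control, with 95% confidence intervals. Filled symbols passed limma adjusted p 0.05, and the dashed line is the median of all tested genes, -0.10. KLF9 (1.09) and KLF4 (0.72) stand on the right, and KLF2 (-1.13) and KLF10 (-0.76) lie farthest to the left.

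Grouped by the role known from adipogenesis, a grouping made after the values were seen, the 4 members that promote it divided into 2 that rose (KLF4 and KLF9) and 2 that fell (KLF5 and KLF6). Of the 3 members that hold it back (KLF2, KLF3 and KLF7), 0 rose and 3 fell, and after median-of-ratios scaling 1 of these 3 (KLF2) and 1 of the promoting members (KLF6) still fell. By branch, the activators had 1 higher and 4 lower of 5, and the Sin3-binding members 1 higher and 2 lower of 4, beside 12.9% higher and 23.0% lower among all tested genes. The 4 lower activators became 2 after median-of-ratios scaling, with limma-voom, without a filter, and without control replicate 2, control replicate 3, YAP replicate 1 or YAP replicate 2, and 3 without YAP replicate 3.

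The order of levels changed with the group. In controls KLF6 stood first, followed by KLF2 and KLF10, whose ranges overlapped, and then by KLF4. KLF3, KLF5, KLF13 and KLF7 came next, each with a range that overlapped that of its neighbour. KLF9 was ninth and KLF11 last, both apart from their neighbours. In the libraries labelled YAP, KLF4 was second after KLF6, and KLF10 and KLF2 followed, all without overlap between neighbours. KLF5, KLF3, KLF9 and KLF13 then overlapped with their neighbours, KLF7 stood below them and KLF11 was last again.

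The summed level of the 10 genes was 182 ± 2.38 FPKM in controls, against 150.4 ± 4.25 in the libraries labelled YAP, without overlap. Shares within this sum, and ratios between 2 KLF genes of a library, do not depend on how libraries are scaled to each other. KLF4 made up 10.7% ± 0.33 of the sum in controls, against 21.7% ± 1.35 in the libraries labelled YAP. KLF9 made up 2.13% ± 0.38 and 6.18% ± 0.25, and KLF2 15.4% ± 2.80 and 8.16% ± 1.28. KLF6 held 32.8% ± 1.82 and 30.1% ± 1.38 of the sum, and these ranges overlapped, as did the shares of KLF3, KLF5, KLF7 and KLF13. The ratio of KLF4 to KLF2 was 0.63, 0.63 and 0.85 in the 3 controls, against 3.05, 2.35 and 2.68 in the 3 libraries labelled YAP. KLF2 was thus the higher of the pair in each control and KLF4 in each library labelled YAP. The ratio of KLF9 to KLF10 was 0.15 ± 0.03 in controls, against 0.61 ± 0.02 in the libraries labelled YAP. These pairs were chosen after their values were seen.

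**Figure D3:**
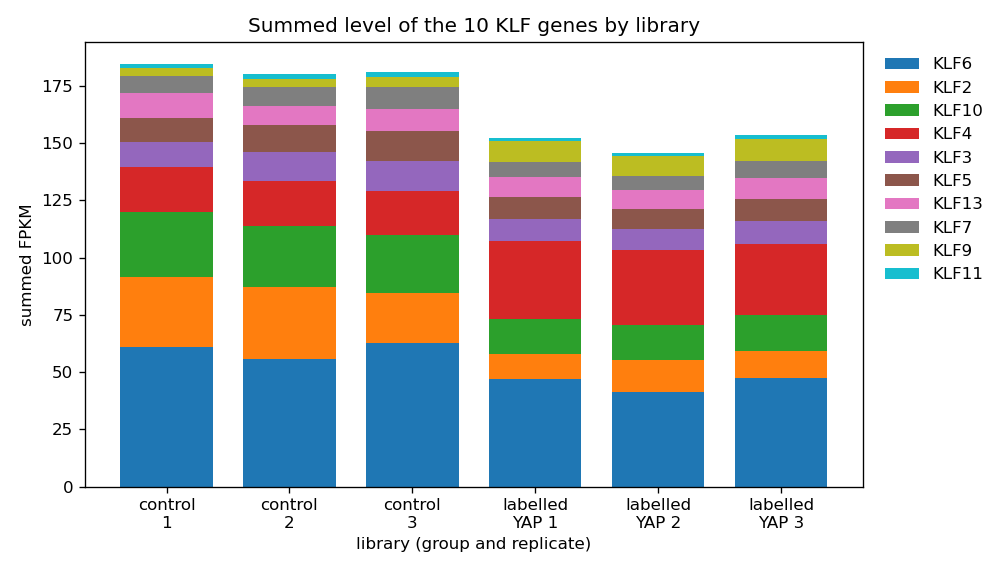
Summed FPKM of the 10 KLF genes in each library, with a segment for each gene in the order of mean control level. The bars reach 180.2 to 184.7 FPKM in the controls and 145.5 to 153.3 in the libraries labelled YAP, where the KLF4 segment is larger and the KLF2 and KLF10 segments are smaller.

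Of the other KLF genes, 6 had a row and 2 were tested. KLF16, another Sin3-binding factor, fell from 23.6 ± 1.85 to 16.5 ± 0.56 FPKM, with a log2 change of -0.49 (SE 0.08; limma adjusted p = 9.7e-04). KLF12, of the CtBP branch, stood at 1.39 ± 0.21 and 1.47 ± 0.48 FPKM (limma adjusted p = 0.87). KLF1, KLF8 and KLF14 had at most 12 reads in any library. The row named KLF15 had 20, 20 and 11 reads in controls, against 50, 55 and 56 in the libraries labelled YAP, or 0.07 ± 0.02 and 0.21 ± 0.02 FPKM. It was below the filter and passed only in the fit without one (log2 change 0.18, limma adjusted p = 0.0027). The deposited annotation gives this row the symbol CFAP100 and terms for cilia, so which gene its reads belong to is uncertain. KLF17 and KLF18 had no row under these symbols and could not be analysed.

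The SP factors, which share the zinc finger type and the GC-rich sites of the KLF proteins, had 4 tested members. Of these, 0 rose and 3 fell, where 12.9% of all tested genes rose and 23.0% fell. Their median log2 change was -0.40, against -0.10 over all tested genes. SP2 fell from 7.24 ± 0.21 to 5.11 ± 0.11 FPKM, SP3 from 14.3 ± 1.46 to 10.8 ± 0.33 and SP7, the osteoblast factor osterix, from 1.33 ± 0.23 to 0.73 ± 0.09. SP1, the widely expressed activator, stood at 11.5 ± 2.07 and 10.5 ± 1.52 FPKM (limma adjusted p = 0.52). Of 10 tested cofactors of KLF proteins, 0 rose and 2 fell, with a median log2 change of -0.03, and the share that fell was close to the 23.0% of all tested genes. These were the deacetylase gene HDAC2, from 36.8 ± 3.82 to 25.8 ± 1.18 FPKM (limma adjusted p = 0.0015), and the corepressor gene CTBP2, from 13.0 ± 0.53 to 10.9 ± 0.28 (limma adjusted p = 0.040). For CTBP2, median-of-ratios scaling gave a limma adjusted p of 0.15, and the call was also lost without any 1 library other than control replicate 2 (0.071 to 0.18).

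Among 8 tested genes upstream of KLF2, KLF4 and KLF5, kinases of the ERK5 cascade, MEF2 factors and ubiquitin ligases, 1 rose and 2 fell (median log2 change -0.07), a share of calls close to the 35.9% of all tested genes. The kinase gene MAP3K3 rose from 5.77 ± 0.78 to 7.94 ± 0.59 FPKM (limma adjusted p = 0.011). MEF2A, which drives KLF2 and KLF4 transcription downstream of ERK5, fell from 6.53 ± 0.49 to 4.93 ± 0.36 (limma adjusted p = 0.014, and 0.053 without YAP replicate 2), and MEF2C fell from 1.30 ± 0.17 to 0.87 ± 0.14 (limma adjusted p = 0.035, and 0.069 after median-of-ratios scaling). Without control replicate 1, control replicate 3 or YAP replicate 1 the limma adjusted p of MEF2C was 0.058 to 0.16.

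Of 4 tested adipogenesis genes that KLF factors act on or with, 3 rose and 0 fell (median log2 change 1.02), where 12.9% of all tested genes rose and 23.0% fell. EGR2, the partner of KLF4 in inducing CEBPB, rose from 1.81 ± 0.19 to 5.64 ± 0.20 FPKM (log2 change 1.24, SE 0.09). CEBPD and CEBPB, early factors of adipogenesis, rose by log2 changes of 1.10 (SE 0.10) and 0.93 (SE 0.12). CEBPA, a gene that KLF3 represses, stood at 1.87 ± 0.05 and 1.59 ± 0.17 FPKM, lower without overlap (limma adjusted p = 0.22). PPARG, the gene on which KLF2, KLF5 and KLF9 are known to act, had 2 to 4 reads in every library, so that a difference was not detectable at this depth. ADIPOQ, with 2 to 17 reads, and SLC2A4, with 1 to 12, were also below the filter, and DLK1 had no row under this symbol.

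Other known KLF targets moved both ways, with 2 of 7 tested members higher and 3 lower (median log2 change -0.15), beside 12.9% and 23.0% of all tested genes. THBD, the thrombomodulin gene that KLF2 is known to activate in endothelium, rose from 8.87 ± 0.42 to 23.5 ± 0.21 FPKM in the libraries in which KLF2 fell (log2 change 1.31 ± 0.08 SE, limma adjusted p = 2.9e-07). TXNIP rose from 12.1 ± 2.18 to 21.6 ± 0.36 FPKM. CCND1, the cyclin D1 gene, fell from 83.4 ± 13.7 to 32.3 ± 0.74 FPKM, and SMAD7, an inhibitor of TGF-beta signalling that KLF10 is known to repress, from 14.2 ± 2.39 to 7.22 ± 0.28. CCNB1, the cyclin B1 gene, fell from 65.5 ± 8.50 to 50.6 ± 1.25 FPKM (limma adjusted p = 0.012, and 0.055 without YAP replicate 1). Its limma adjusted p was 0.056 in the count-based fit of recovered reads. CDKN1A, which KLF4 is known to activate, stood at 99.5 ± 14.8 and 99.3 ± 1.15 FPKM (limma adjusted p = 0.96). Of 6 tested glucocorticoid-induced genes, a class to which KLF9 belongs, 2 rose and 0 fell (median log2 change 0.22), beside the same 12.9% and 23.0%. TSC22D3 rose from 5.85 ± 0.51 to 8.58 ± 1.34 FPKM and PER1 from 0.94 ± 0.08 to 1.61 ± 0.14. FKBP5 stood at 12.0 ± 0.96 and 14.2 ± 0.99 (limma adjusted p = 0.067, and 0.044 without control replicate 3), and ERRFI1 at 9.58 ± 1.13 and 11.3 ± 0.22 (0.092). In the other direction, SGK1 stood at 10.5 ± 1.21 and 8.86 ± 0.22 without overlap (limma adjusted p = 0.093). DUSP1 stood at 83.7 ± 12.6 and 77.0 ± 7.01 with overlap (0.44). After median-of-ratios scaling 4 of the 6 were higher, FKBP5 among them (limma adjusted p = 0.020), where 15.8% of all tested genes were higher. Without control replicate 1, 3 of the 6 were higher and 1 was lower, where 1242 of all 10761 tested genes were higher and 1989 lower.

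**Figure D4:**
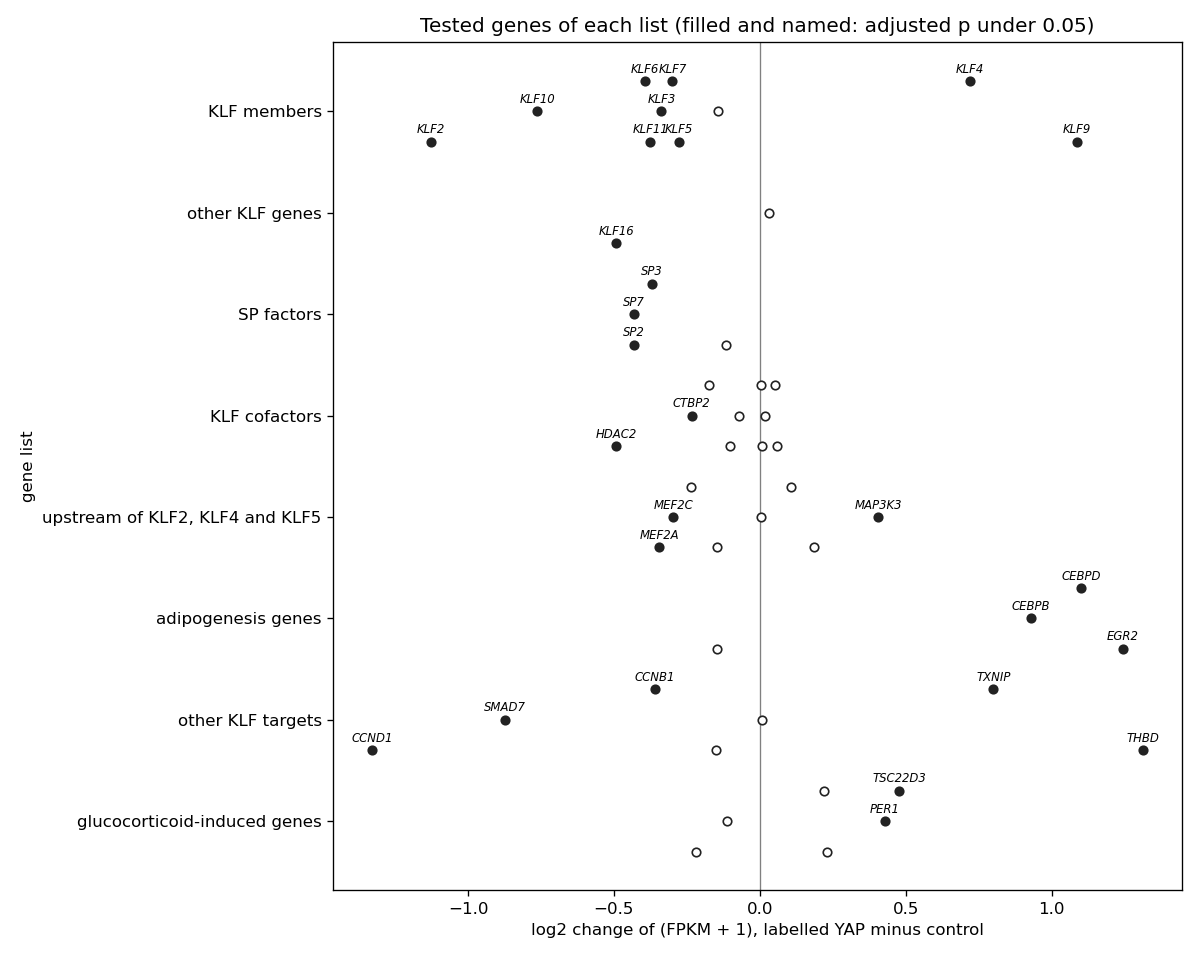
Log2 change of (FPKM + 1), libraries labelled YAP minus control, of each tested gene in the KLF family and 7 related lists, spread vertically for legibility within a list. Filled and named points passed limma adjusted p 0.05. EGR2, CEBPD and CEBPB stand at 0.93 to 1.24, and all 4 tested SP factors stand below 0, 3 of them filled.

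The genes whose pattern over the 6 libraries was most like that of KLF9, the member with the smallest adjusted p, were ARNT, FYN and ARG2, with Pearson correlations of 0.999 for each on the log2(FPKM + 1) scale. The libraries fall into 2 groups that differ in all 4 genes, so these correlations over 6 points mostly restate the group difference and are given as a description. ARNT, a partner of the hypoxia-inducible factors, stood at 6.28 ± 0.56 FPKM in controls, against 11.4 ± 0.57 in the libraries labelled YAP. FYN, a Src-family kinase gene, stood at 7.07 ± 0.83 and 11.9 ± 0.55, and ARG2, the mitochondrial arginase gene, at 10.4 ± 0.76 and 17.1 ± 0.62.

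**Figure D5:**
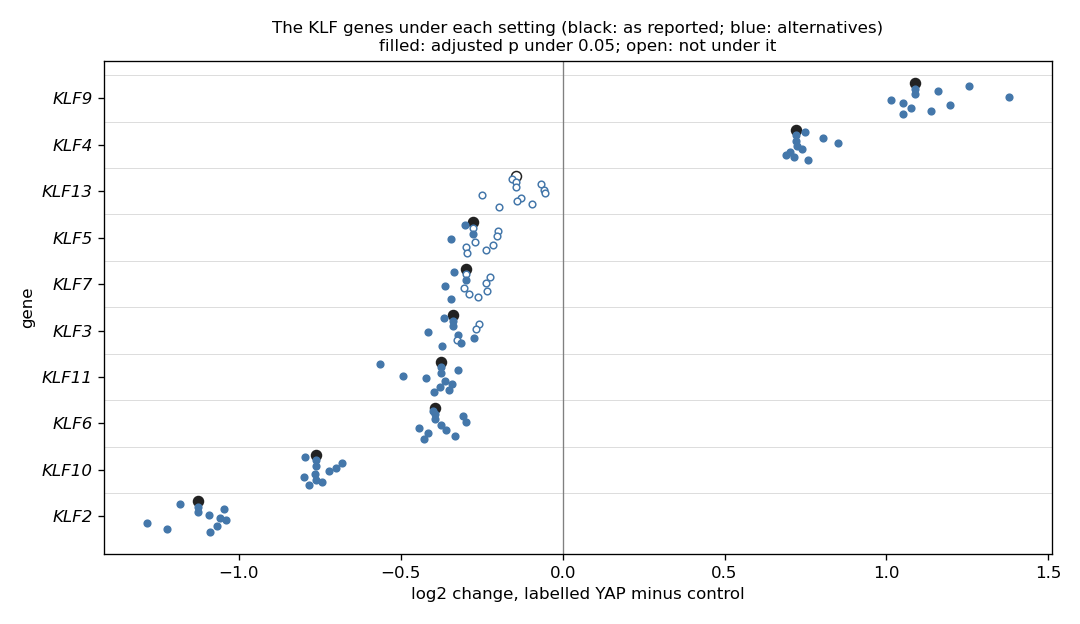
Log2 change of each of the 10 KLF genes, libraries labelled YAP minus control, as reported (black) and under 11 alternative settings (blue), filled where the limma adjusted p was under 0.05. KLF9, KLF4, KLF11, KLF6, KLF10 and KLF2 are filled in all 12, KLF13 in none, and KLF5, KLF7 and KLF3 in some.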

How the data were processed

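RNA extraction used TRIzol and library construction the VAHTS Universal V6 kit, per the labels' protocols. According to the submitters' processing notes, fastp, HISAT2 and HTSeq were used. Not given in the sources used here are the build, annotation and strand setting and how multi-mapping reads were counted, so reads of related KLF genes could be shared. FPKM values for the same 16285 genes were deposited by the authors as 2 tables. Of 6 further columns of per-sample values, whose names match no sample, none was used.

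Groups came from sample titles. The filter of 1 FPKM or more in 3 or more libraries left 10761 genes, which were tested on log2(FPKM + 1) with limma 3.58.1 in R 4.3.3 (eBayes with a trend), two-sided, Benjamini-Hochberg adjusted over all tested genes at 0.05. Whole reads were recovered from the FPKM steps by searching, for each gene, for a length at which its reads were whole in every library. Of the genes above 0 in all 6 libraries, 13435 had such a length, with reads whole within 0.01. The search itself required whole reads, so this count is no separate check of the recovered reads. No libraries agreed within counting noise (chi-square per gene 7.92 to 31.9 between replicates), so all 6 were kept. Alternatives were a pseudocount of 0.1, no filter, median-of-ratios scaling, the replicate number as a block, limma-voom with trimmed-mean scaling on recovered reads and leaving out each library. Steps were tested on simulated data.

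The members and lists were chosen with earlier results of these data known. The text names all 10 members, YAP1, other KLF genes with a row, up to 4 genes per list with the smallest adjusted p among those past the threshold, and the 3 genes most like the leading member. Other genes named were chosen after their values were seen. Of identifiers, 16262 matched a RefSeq symbol (assembly ARS1.2), used for names and gene order only.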

Additional observations from a re-analysis of the deposited data

How the results depend on the processing

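The 2 rises (KLF9 and KLF4) and the falls of KLF2, KLF10, KLF6 and KLF11 passed under all 11 alternatives, and KLF13 under none. KLF3 passed in 8, KLF7 in 4 and KLF5 in 3. The count of lower members, 7, was 4 after median-of-ratios scaling and 4 with limma-voom on recovered reads, and 5 without a filter. Leaving out 1 library gave 4 to 7, with 4 without YAP replicate 1. Over all genes, the 2476 lower calls became 1507 after median-of-ratios scaling, 1393 with limma-voom and 3745 with the replicate block, and 1387 to 2273 when 1 library was left out, the lowest without YAP replicate 1. Lower genes made up 64.0% of calls as reported and 46.9% after median-of-ratios scaling, which moved the median of all tested genes by 0.08 (log2). The cause was not tested. The labels do not say whether the replicate numbers pair the samples. Deviations of same-numbered libraries correlated at -0.018, 0.591 and 0.597 for replicates 1, 2 and 3. Control replicate 2 with YAP replicate 3 gave -0.563, and control replicate 3 with YAP replicate 2 gave -0.62. Pairing was thus neither shown nor excluded, and the fit with the replicate block gave the same 2 higher and 7 lower members. With the block, FKBP5 passed (limma adjusted p = 0.0098), and the glucocorticoid-induced genes had 4 higher and 1 lower. Calls were more frequent with the block, with 1828 of all 10761 tested genes higher and 3745 lower. KLF12, YAP1, SP1 and CDKN1A changed sign when 1 library was left out (-0.11 to 0.18, -0.028 to 0.054, -0.24 to 0.0012 and -0.092 to 0.12). Depth did not limit the 10 members, which had at least 178 reads in every library, but PPARG, with 2 to 4 reads, could not be compared.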

Other observations

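The nearest protein-coding genes on either side of each member in the RefSeq gene order give 20 neighbours, of which 12 were tested. Of these, 0 rose and 7 fell, where 12.9% of all tested genes were higher and 23.0% lower. Among the 7, LOC102188953, AZIN1 and CYS1 were close to the threshold (limma adjusted p 0.037, 0.034 and 0.034). The neighbours were counted in the reported fit only, and with median-of-ratios scaling 14.0% of all tested genes were lower. Next to KLF9, the chromosome maintenance gene SMC5 fell from 4.93 ± 0.63 to 3.20 ± 0.21 FPKM (limma adjusted p = 0.0030), and next to KLF4, the DNA repair gene RAD23B fell from 67.5 ± 1.41 to 54.6 ± 1.58 (limma adjusted p = 0.0070), opposite to both members. Both neighbours of KLF2, AP1M1 and EPS15L1, fell (log2 changes -0.24 and -0.32), by less than KLF2 itself (-1.13). With median-of-ratios scaling the limma adjusted p was 0.16 for AP1M1 and 0.060 for EPS15L1. Both missed the threshold without control replicate 1 (0.077 and 0.056) or YAP replicate 1 (0.12 and 0.072), and AP1M1 also without YAP replicate 2 or 3 (0.068 and 0.083). RAD23B missed it without YAP replicate 1 (0.061) and with limma-voom on recovered reads (0.052). KLF5 and KLF12 are neighbours of each other. These genes were looked at after the results for the members were known.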
